A study of Mus musculus with 16 samples.

Results

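The Hox genes encode homeodomain transcription factors that lie in 4 chromosomal clusters. Members were taken as all genes whose platform symbol was Hox followed by a cluster letter and a paralogue number. There were 34 such genes among the 17097 genes on the array, and 30 of them were among the 14819 genes that passed the filter on dim signal. The HoxA cluster on chromosome 6 gave 9 members, HoxB on chromosome 11 gave 10, HoxC on chromosome 15 gave 6 and HoxD on chromosome 2 gave 9. Other Hox genes were not analysed here. The untested members were Hoxb1, Hoxd1, Hoxd3 and Hoxd10.

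The cells were dermal fibroblasts, which make the collagen-rich matrix of skin, from female C57Bl/6 mice with no transgene or treatment named in the labels. The 16 arrays formed 4 groups of 4: cultured cells of old mice (18 months), cultured cells of young mice (2 months), freshly isolated cells of old mice and freshly isolated cells of young mice. The last 2 groups are called in vivo, as in the labels. Each mouse supplied cells to both conditions, and 5000 cells were profiled per sample. The sources used here do not state the body site, how cells were selected, the time in culture or the passage, and the labels do not show which arrays came from the same mouse.

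Hox proteins give cells along the body axes their positional identity, and in vertebrates the order of genes in a cluster follows the order of their expression from head to tail. Low paralogue numbers mark anterior positions and high numbers mark posterior and distal limb positions. Fibroblasts of adult skin keep Hox patterns that reflect the site they came from, and these patterns are held in place by Polycomb and Trithorax chromatin complexes. Hox proteins bind DNA together with PBX and MEIS cofactors of the TALE homeodomain class.

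Promoters are shown for Hoxa9 and Hoxd9, the members that fell most in culture, for Hoxa10, the neighbour of Hoxa9 that rose, and for Hoxb8, which rose most in HoxB. Each is the 250 bases before a RefSeq start in GRCm38.p6, read 5′ to 3′ on the gene's strand. Capitals mark matches to a HOX-PBX composite motif (TGATNNAT) or to a TATA box (TATAAA) on either strand. The positions are chr6:52227371-52227620 (minus strand) for Hoxa9, chr6:52240855-52241104 (minus strand) for the first start of Hoxa10, chr6:52234940-52235189 (minus strand) for its second start, chr11:96281655-96281904 (plus strand) for Hoxb8 and chr2:74697513-74697762 (plus strand) for Hoxd9.
Hoxa9: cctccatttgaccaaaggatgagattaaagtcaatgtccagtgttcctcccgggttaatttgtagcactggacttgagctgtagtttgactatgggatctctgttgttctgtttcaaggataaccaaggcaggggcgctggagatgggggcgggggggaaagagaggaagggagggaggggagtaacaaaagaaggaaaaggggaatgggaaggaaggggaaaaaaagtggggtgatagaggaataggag
Hoxa10 start 1: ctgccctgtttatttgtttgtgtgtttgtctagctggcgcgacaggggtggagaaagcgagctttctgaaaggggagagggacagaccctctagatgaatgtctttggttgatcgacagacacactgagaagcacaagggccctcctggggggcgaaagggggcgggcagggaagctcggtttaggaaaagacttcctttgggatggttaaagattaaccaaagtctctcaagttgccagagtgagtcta
Hoxa10 start 2: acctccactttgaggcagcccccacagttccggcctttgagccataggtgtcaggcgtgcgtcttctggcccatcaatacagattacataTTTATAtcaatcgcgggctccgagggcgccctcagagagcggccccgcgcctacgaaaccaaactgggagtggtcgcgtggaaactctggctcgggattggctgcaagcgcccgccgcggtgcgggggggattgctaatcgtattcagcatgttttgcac
Hoxb8: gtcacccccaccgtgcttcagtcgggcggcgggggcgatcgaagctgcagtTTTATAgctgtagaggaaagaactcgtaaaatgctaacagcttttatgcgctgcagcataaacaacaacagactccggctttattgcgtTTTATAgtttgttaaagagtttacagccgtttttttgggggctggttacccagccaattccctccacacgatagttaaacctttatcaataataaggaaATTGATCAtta
Hoxd9: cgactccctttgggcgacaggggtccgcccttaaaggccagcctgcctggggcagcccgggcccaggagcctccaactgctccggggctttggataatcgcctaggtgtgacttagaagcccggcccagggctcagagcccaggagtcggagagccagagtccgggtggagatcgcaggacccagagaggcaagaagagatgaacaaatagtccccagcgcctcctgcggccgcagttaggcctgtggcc

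RefSeq held promoters for 21 of the members, with 23 start sites. The HOX-PBX motif was found in 4 of the 23 windows (17.4%), those of Hoxa2, Hoxb1, Hoxb8 and Hoxd11, against 7.68% of all 32851 promoter windows. The TATA motif was also found in 4 of 23 windows (17.4%), those of Hoxa10, Hoxb8, Hoxd4 and Hoxd13, against 12.4% of all windows. In Hoxb8 the composite match began 11 bases before the start and the TATA matches began 199 and 110 bases before it, without overlapping each other. In the second Hoxa10 window the TATA match began 160 bases before the start. A direct repeat of a retinoid receptor motif with 5 bases between the copies (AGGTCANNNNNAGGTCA) was in none of the 23 windows and in 0.0091% of all windows. The median number of CpG dinucleotides was 12 in the Hox windows and 6 in all windows.

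Values are the deposited log2 intensities, so a difference of 1 is 2-fold, and levels are compared only within a gene because probe sets differ in brightness. As a guide to background, the 95th percentile of 12 poly-A control probe sets was 4.34. By their group means, 23 members lay above this level in all 4 groups. They were Hoxa3, Hoxa4, Hoxa5, Hoxa7, Hoxa9, Hoxa10 and Hoxa13, then Hoxb2, Hoxb3, Hoxb4, Hoxb5, Hoxb6, Hoxb8 and Hoxb9, then Hoxc4, Hoxc5, Hoxc8, Hoxc9 and Hoxc10, and Hoxd4, Hoxd8, Hoxd9 and Hoxd12. Another 5 lay above it in some groups (Hoxb7, Hoxb13, Hoxc13, Hoxd11 and Hoxd13), and 6 lay above it in no group (Hoxa2, Hoxa11, Hoxb1, Hoxd1, Hoxd3 and Hoxd10). Members above background numbered 26 in old cultured, 26 in young cultured, 25 in old in vivo and 26 in young in vivo cells. As a second guide, the 95th percentile of 44 olfactory receptor probe sets was 4.57. Above that lay 23 members in old cultured, 24 in young cultured, 22 in old in vivo and 24 in young in vivo cells. By either guide, members as far apart as paralogue 2 (Hoxb2) and paralogue 13 (Hoxa13) lay above background in every group. Not every paralogue number between them did. Hoxa11 was below the control level in all groups, and Hoxd11 was above it only in old cultured cells (4.42). Hoxb6 was above the olfactory receptor level only in young cultured cells (4.90). The end members were dim. Hoxb2 had group means of 4.75 to 5.17 and Hoxa13 of 4.69 to 5.285, set against array medians of 4.74 to 4.92.

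**Figure D1:**
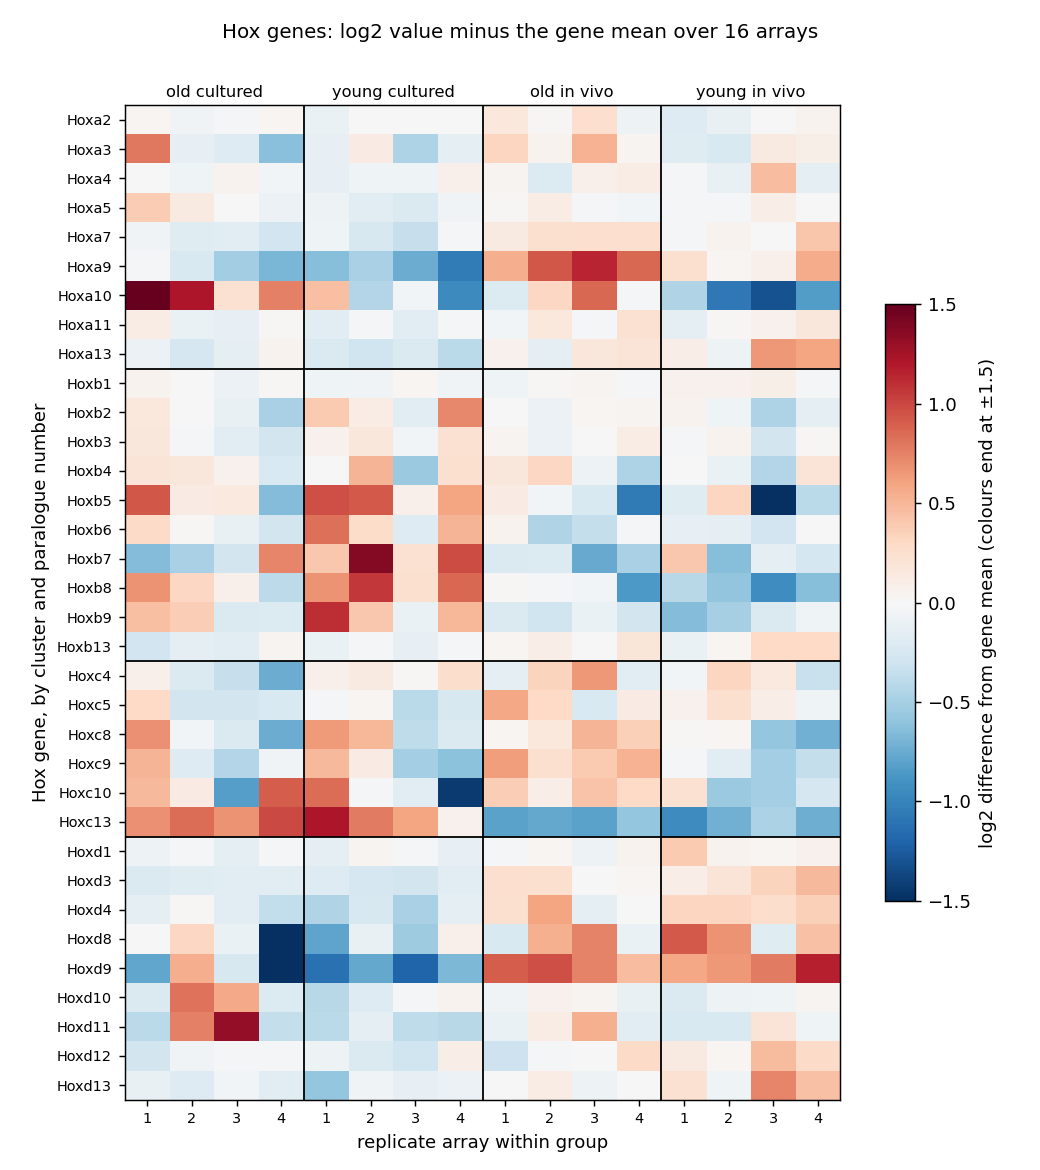
Log2 value of each of the 34 Hox genes minus its own mean over the 16 arrays, with genes ordered by cluster and paralogue number (rows) and arrays by group (columns). Red is above and blue below the gene's mean, and colours end at a difference of 1.5. Hoxc13 is red in the cultured arrays, Hoxa9 is blue in the cultured arrays, and Hoxd10 and Hoxd11 are raised in old cultured replicates 2 and 3.

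The arrays of the same condition correlated at 0.977 to 0.992 in vivo and 0.987 to 0.996 in culture, and arrays of different conditions at 0.879 to 0.913. All 8 fibroblast markers were above the control background in every group, although 6 of them fell in culture, among them Lum (log2 change -4.64), Dpt (-2.85) and Dcn (-1.68). Their mean log2 value per array was 8.87 to 9.09 in old cultured and 8.80 to 9.14 in young cultured cells, against 10.3 to 10.4 in old in vivo and 10.3 to 10.4 in young in vivo cells. Of the tested markers of other cells, 7 of 8 endothelial genes (Kdr at -2.35 and Tek at -2.72), 5 of 8 keratinocyte genes, 6 of 6 macrophage genes (Cd68 at -2.59), 5 of 5 T cell genes, 5 of 5 melanocyte genes (Mitf at -2.73) and 2 of 3 Schwann cell genes fell in culture. Of 4 pericyte and smooth muscle genes 2 rose (Myh11 by 4.36) and 1 fell, and of 5 skeletal muscle genes 1 rose (Acta1 by 5.01) and 4 fell. Over all genes tested, 34.8% were higher and 44.7% lower in culture. Several markers counted as falling were at or below the control background in every group. They included Emcn, C1qb, Aif1, Cd3e, Cd3g, Cd2, Tyr, Dct and Myod1. The adipocyte markers Adipoq and Lep were at background in every group. Old in vivo replicate 1 stood apart in keratinocyte markers. The mean of the 9 keratinocyte genes was 6.14 there, against 4.89 to 5.03 in the other old in vivo arrays and 4.88 to 5.15 in the young in vivo arrays, and Krt5, a basal keratin, was 9.68 there, against at most 6.30 elsewhere. Krt10, a keratin of differentiated keratinocytes, went the other way: it was 6.65 on that array, against 7.35 to 7.51 in the other old in vivo arrays. Of these 9 genes, Krt1, Epcam and Cdh1 were at or below the control background in every group. Beta-actin 3′ minus 5′ probe signal, a sign of RNA integrity and amplification, averaged 0.10 and 0.07 in old and young cultured cells and -0.46 and -0.41 in old and young in vivo cells. The same measure for Gapdh did not split in this way. It averaged -0.15 and -0.105 in old and young cultured cells and -0.145 and -0.0775 in old and young in vivo cells. The part of these differences in the Hox values was not tested.

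In culture, 5 of 9 tested HoxB genes rose and 5 of 6 tested HoxD genes fell, counts that became 3 of 9 with the 75th percentile scaling for HoxB and 3 of 6 with cyclic loess for HoxD. Averaged over both ages, 7 of the 30 tested members were higher in cultured than in vivo cells and 10 were lower at a Benjamini-Hochberg adjusted p of 0.05 in limma. Over all genes tested, 34.8% were higher and 44.7% lower, so calls were common throughout the array and the members' counts lie below that background. A change of at least 2-fold was called higher for 1 member (13.3% of all genes tested) and lower for 2 members (8.1% of all genes tested). In bulk samples such as these, fewer cells of a type and less RNA per cell cannot be told apart. The median log2 change was -0.04 over the members, against -0.11 over all genes tested. The split of calls moved with the scaling: it was 5 higher and 18 lower after each array was shifted to a common 75th percentile (a shift of -0.20 in the all-gene median), and 10 higher and 8 lower with cyclic loess.

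HoxB, the cluster with the most risers, had 5 of 9 tested genes higher and 1 lower, with a median log2 change of 0.33. The median stayed above 0 at the other scalings, 0.14 with the 75th percentile and 0.51 with cyclic loess. The risers were the contiguous genes Hoxb5 (0.78 ± 0.27, SE), Hoxb6 (0.33 ± 0.13), Hoxb7 (0.57 ± 0.21), Hoxb8 (0.88 ± 0.16) and Hoxb9 (0.58 ± 0.15), with adjusted p of 0.015, 0.0235, 0.0191, 0.000129 and 0.00219 in that order. Hoxb13, the posterior end of the cluster, fell by 0.21 (adjusted p = 0.0122) to means near the control background, and that call was lost with cyclic loess. The calls of Hoxb6 and Hoxb7 were lost with the 75th percentile scaling, and that of Hoxb6 was also lost without old in vivo replicate 2, young cultured replicate 1 or old cultured replicate 1. Both genes were dim. Their means lay below the olfactory receptor level of 4.57 in all groups but young cultured, where they were 4.90 and 5.47. Hoxb7 in old in vivo cells (4.305) was also below the control background. Hoxb2, Hoxb3 and Hoxb4, the anterior part of the cluster, did not pass the test, with log2 changes of 0.16, 0.04 and 0.10.

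Hoxb8 was set out by array after its values were seen, as the HoxB gene with the largest rise. It had log2 values of 6.68, 6.32, 6.08 and 5.61 in old cultured cells and 6.68, 7.06, 6.25 and 6.86 in young cultured cells. It had 6.02, 5.97, 5.96 and 5.14 in old in vivo cells and 5.59, 5.41, 5.07 and 5.37 in young in vivo cells. The young cultured arrays lay above all young in vivo arrays, while the old cultured arrays overlapped the old in vivo arrays.

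In HoxD, 5 of 6 tested genes fell and none rose, with a median log2 change of -0.42, which was -0.62 with the 75th percentile scaling and -0.25 with cyclic loess. Hoxd4 fell by 0.50 (SE 0.09, adjusted p = 0.000152), Hoxd8 by 0.70 (SE 0.25, adjusted p = 0.0189) and Hoxd9 by 1.57. Hoxd12 and Hoxd13, genes active in the limb bud and digits, fell by 0.22 (adjusted p = 0.0379) and 0.34 (adjusted p = 0.0056). The Hoxd13 means of 4.26 in old cultured and 4.18 in young cultured cells lay below the control background, so its measured fall is limited by the background. Both of these calls were lost with cyclic loess, that of Hoxd13 also with the mean over its probe sets, and that of Hoxd12 when any one of 8 of the 16 arrays was left out. Hoxd11 did not pass (log2 change -0.01).

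Hoxd9, a posterior HoxD gene also active in limb patterning, was 8.57, 9.90, 9.11 and 7.34 in old cultured cells and 8.23, 8.59, 8.15 and 8.68 in young cultured cells. It was 10.26, 10.32, 10.10 and 9.82 in old in vivo cells and 9.94, 10.01, 10.13 and 10.52 in young in vivo cells. Every young cultured array was below every in vivo array, and 1 old cultured array (replicate 2) reached the in vivo range. The averaged difference was -1.57 ± 0.25 (SE, limma adjusted p = 2.74e-05), 2.96-fold lower in culture.

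HoxA had 1 gene higher and 3 lower among 9 tested, against 34.8% higher and 44.7% lower over all genes tested. Its median log2 change was -0.11, and it was -0.31 with the 75th percentile scaling and 0.01 with cyclic loess. Hoxa9, a posterior gene known from blood cell progenitors as well as the trunk, fell most. It was 7.78, 7.58, 7.29 and 7.12 in old cultured cells and 7.17, 7.32, 7.07 and 6.76 in young cultured cells. In old in vivo cells it was 8.36, 8.74, 8.95 and 8.67, and in young in vivo cells 8.05, 7.84, 7.89 and 8.37. All 8 cultured arrays lay below all 8 in vivo arrays, with a log2 change of -1.10 ± 0.12 (SE, limma adjusted p = 2.12e-07), 2.14-fold lower.

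Hoxa10, the next gene in the cluster and known for its role in the uterus and the limb, rose in culture by 0.68 ± 0.22 (SE, limma adjusted p = 0.00998). The Hoxa10 minus Hoxa9 difference within an array averaged -0.41 ± 0.37 in old cultured and -1.23 ± 0.50 in young cultured cells, against -2.34 ± 0.26 in old in vivo and -2.85 ± 0.33 in young in vivo cells (SD, n = 4 each). This shows unequal change of the 2 probe sets and was not tested. Hoxa7, a trunk gene, fell by 0.33 (adjusted p = 0.000528), and Hoxa13, a gene of the distal limb and urogenital tract, fell by 0.39 (adjusted p = 0.00209), a call lost with cyclic loess. Hoxa3, Hoxa4, Hoxa5, Hoxa11 and Hoxa2 did not pass, with log2 changes of -0.19 to -0.02.

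In HoxC, 1 of 6 tested genes rose and 1 fell, against 34.8% and 44.7% over all genes tested. The median log2 change of the cluster was -0.10. Hoxc13, known for its requirement in hair and nail keratin expression, was 5.49, 5.65, 5.48 and 5.80 in old cultured cells and 6.02, 5.59, 5.40 and 4.87 in young cultured cells. It was 4.00, 4.04, 4.00 and 4.23 in old in vivo cells and 3.87, 4.09, 4.33 and 4.07 in young in vivo cells. All 8 in vivo arrays were below the control background of 4.34 and all 8 cultured arrays were above it. The fitted log2 change was 1.46 ± 0.12 (SE, limma adjusted p = 1.2e-08). With the in vivo arrays at the background level, the cultured mean of 5.54 was at least 2.29-fold higher, and the measured in vivo mean was 4.08.

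The only other HoxC call was Hoxc5, which fell by 0.28 (adjusted p = 0.0352), and it was lost when any one of 9 of the 16 arrays was left out. Hoxc4, Hoxc8, Hoxc9 and Hoxc10 had log2 changes of -0.19, 0.05, -0.18 and -0.02 and did not pass. Of the 4 tested members of paralogues 1 to 3, none passed in either direction. Of the 13 of paralogues 4 to 8, 4 rose and 4 fell, and of the 13 of paralogues 9 to 13, 3 rose and 6 fell. Over all genes tested 34.8% rose and 44.7% fell, and a pattern by position was not tested.

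**Figure D2:**
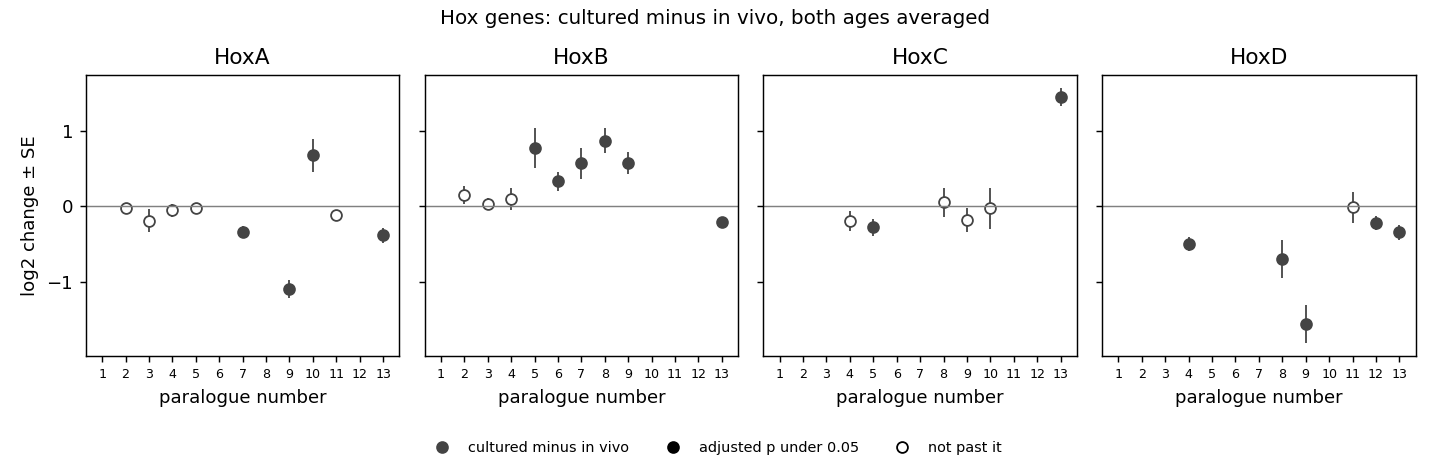
Log2 change of each tested Hox gene, cultured minus in vivo and averaged over both ages, with its SE (y axis), against paralogue number (x axis) in the 4 clusters. Filled points passed an adjusted p of 0.05. Central HoxB genes lie above 0 and HoxD genes at or below it, with Hoxa9 at -1.10, Hoxd9 at -1.57 and Hoxc13 at 1.46.

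Set against in vivo cells of the same age, 7 members were higher and 7 lower in cultured cells of young mice, against 32.6% higher and 38.6% lower over all genes tested. In cultured cells of old mice, 1 was higher and 5 were lower, against 30.2% higher and 32.5% lower over all genes tested. With the 75th percentile scaling the split was 5 higher and 13 lower in young mice and 1 higher and 11 lower in old mice, and with cyclic loess it was 8 higher and 6 lower in young mice and 2 higher and 5 lower in old mice. The 6 HoxB calls in young mice, all higher, were Hoxb2, Hoxb5, Hoxb6, Hoxb7, Hoxb8 and Hoxb9, and no HoxB gene passed in old mice. Hoxb8, for example, had a log2 change of 0.40 ± 0.23 in old mice (adjusted p = 0.14) and 1.35 ± 0.23 in young mice (SE, adjusted p = 7.18e-05).

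The difference between the ages in their culture change was tested by the interaction, the old minus young difference in culture minus that in vivo. No member passed it in either direction, against 0.196% of all genes tested higher and 0.391% lower. At an unadjusted p under 0.05 in limma, 3 of the 30 tested members had an interaction below 0 (Hoxb2, Hoxb8 and Hoxc4) and none above. Over all 14819 genes tested, 1823 were under that level in either direction. Hoxb8 had -0.95 (95% interval -1.64 to -0.26, adjusted p = 0.222). All 9 tested HoxB genes had an interaction estimate below 0, with a median of -0.52, and all 6 HoxD genes had one above 0, with a median of 0.32, but no single gene passed, so the difference between ages in HoxB calls is not shown.

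Among freshly isolated cells, 2 members were higher in old than in young mice and none was lower, against 0.911% of all genes tested higher and 0.439% lower. They were Hoxa10 and Hoxc9, both posterior genes. The members' median log2 difference was 0.09, against 0.015 over all genes tested. HoxC had the largest cluster median, 0.36 over 6 genes.

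Hoxa10 was 5.90, 6.42, 6.97 and 6.08 in old in vivo cells and 5.65, 5.03, 4.80 and 5.26 in young in vivo cells. Every old array was above every young one. The log2 difference was 1.16 ± 0.24 (SE, limma adjusted p = 0.0473), 2.23-fold.

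Hoxc9, which helps set the boundary between limb and thoracic motor neurons, was 8.79, 8.40, 8.56 and 8.68 in old in vivo cells and 8.13, 7.99, 7.66 and 7.81 in young in vivo cells. Again no old array overlapped a young one. The log2 difference was 0.71 ± 0.13 (SE, limma adjusted p = 0.0307), 1.64-fold. Hoxc8, a thoracic gene, was also separated, with 8.87, 8.99, 9.34 and 9.19 in old and 8.85, 8.86, 8.26 and 8.11 in young in vivo cells, but did not pass (0.58 ± 0.19, adjusted p = 0.163).

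In all, 3 members had every old in vivo array above every young one, against 5.8% of all genes tested, and none had every old array below, against 2.73%. Hoxa9 (0.64 ± 0.15, adjusted p = 0.073) and Hoxc10 (0.57 ± 0.17, adjusted p = 0.132) did not pass and their arrays overlapped. At an unadjusted p under 0.05, limma returned these 5 of the 30 tested members and no others, all with estimates above 0. Over all 14819 genes tested, 2217 were under that level. The calls of Hoxa10 and Hoxc9 were close to the threshold. Both Hoxa10 and Hoxc9 lost them without replicate 2, 3 or 4 of old in vivo or of young in vivo cells, and kept them without replicate 1 of either group. Over all alternatives run the adjusted p was 0.0244 to 0.134 for Hoxa10 and 0.0282 to 0.0829 for Hoxc9. Old in vivo replicate 1, with the raised keratinocyte markers, was thus not needed for either call, and without it Hoxa9 also passed (0.75, adjusted p = 0.0319). Among the markers, Col1a2 and Csf1r fell by 0.64 and 1.07 and Kcnj8 rose by 1.06 in old in vivo cells, and their part in the Hox differences was not tested.

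In culture, no member passed the age test, against 0% of all genes tested higher and 0% lower in limma. Of all tested genes, 533 had an unadjusted p under 0.05, and among the members 3 were higher and 3 lower at that level. Hoxa10 was 7.62, 7.32, 6.33 and 6.86 in old cultured cells and 6.55, 5.66, 6.06 and 5.15 in young cultured cells. The difference was 1.18 ± 0.33 (SE, 95% interval 0.43 to 1.93, unadjusted p = 0.00608, limma adjusted p = 0.997). Old replicate 3 was below young replicate 1, so the groups overlapped.

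The Hoxa10 differences in culture and in vivo come from the same mice, and their difference, the interaction, was 0.02 (95% interval -0.91 to 0.95). The fit took the arrays as independent, so this interval does not take account of the shared mice. Hoxc9 was 8.67, 7.97, 7.72 and 8.11 in old cultured cells and 8.65, 8.29, 7.65 and 7.55 in young cultured cells, with a log2 difference of 0.08 (95% interval -0.53 to 0.69). Its groups overlapped. No member had every old cultured array above every young one, against 1.19% of all genes tested, or below, against 0.864%. HoxB had 8 of 9 estimates below 0 with a median of -0.38, from Hoxb7 at -0.92 (95% interval -1.67 to -0.18) to Hoxb4 at 0.00, and none of them passed.

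**Figure D3:**
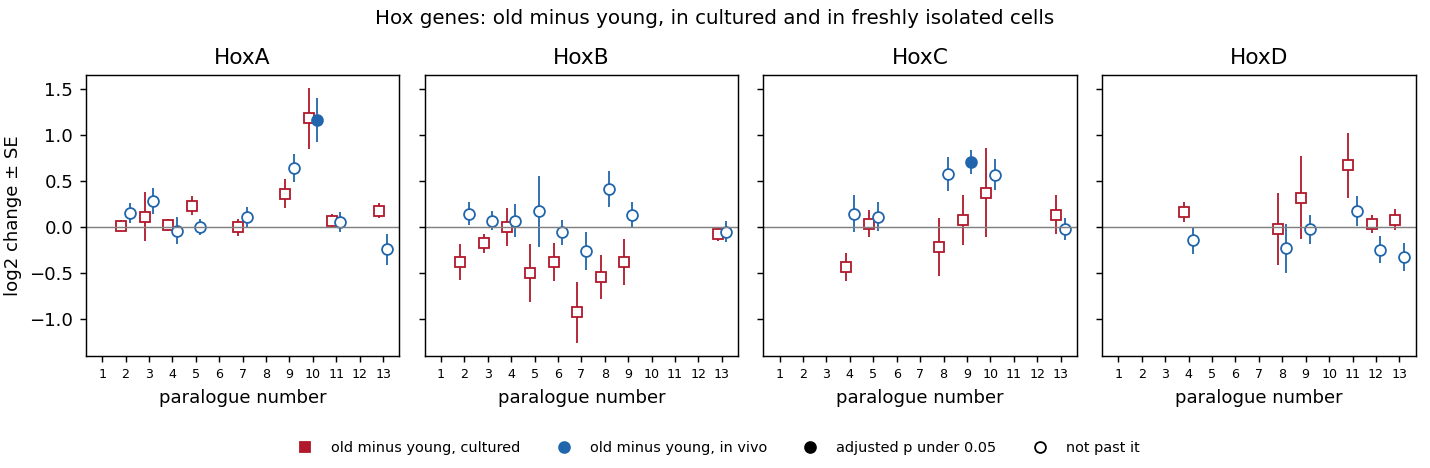
Log2 difference, old minus young, with its SE (y axis) for each tested Hox gene by paralogue number (x axis), in cultured cells (red squares) and in vivo cells (blue circles). Filled points passed an adjusted p of 0.05. Hoxa10 lies at 1.18 in culture and 1.16 in vivo, and Hoxc9 passes in vivo.

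**Figure D4:**
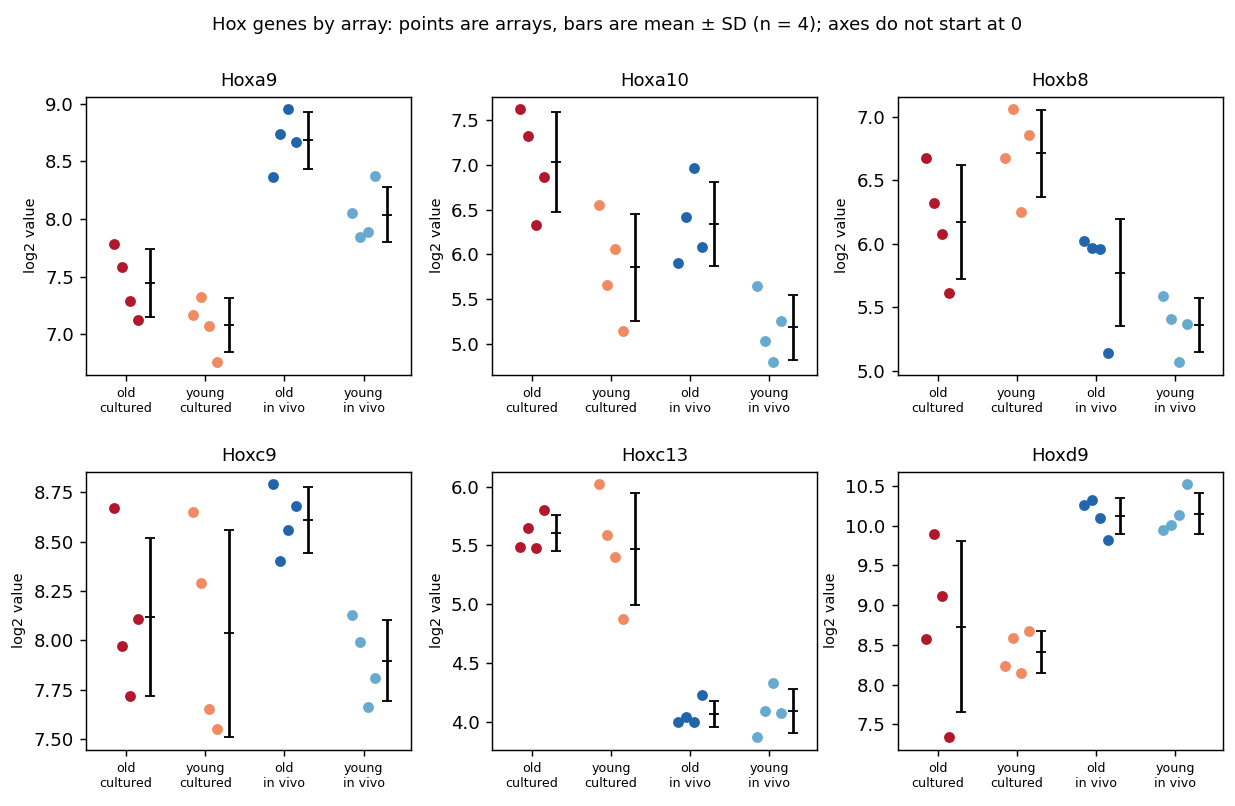
Log2 values by array for 6 Hox genes in old cultured, young cultured, old in vivo and young in vivo cells, with the mean ± SD beside each group (n = 4). Axes do not start at 0. Hoxc13 separates cultured from in vivo arrays, as does Hoxa9 in the other direction, and Hoxc9 separates old from young in vivo arrays.

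The members' median spread between replicate arrays of a group was above that of all genes tested, with the largest gap in culture; the gap was not tested. The median SD within old cultured cells was 0.276 over the 30 members and 0.122 over all genes tested, and in young cultured cells 0.244 and 0.119. In old in vivo cells it was 0.216 and 0.164, and in young in vivo cells 0.219 and 0.177. Above the 90th percentile of all genes' SD were 14 members in old cultured, 14 in young cultured, 5 in old in vivo and 8 in young in vivo cells.

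Within cultured cells many members had their highest or lowest value on the same array. The share of all genes that did so was not counted, so this is not shown to be particular to the Hox genes. The fibroblast marker mean was also highest in old cultured replicate 1 (9.085) and lowest in replicate 4 (8.865). In young cultured cells it was lowest in replicate 3 (8.80). The keratinocyte marker mean was instead lowest in old cultured replicate 1 (4.42). Of the 23 members above background in all groups, replicate 1 of old cultured cells had the highest value for 16 and replicate 4 had the lowest for 15. In young cultured cells replicate 3 had the lowest for 16. Replicate 4 of old cultured cells nonetheless had the highest Hoxb7 (5.45) and Hoxc10 (9.95), and the lowest Hoxd8 (5.76) and Hoxd9 (7.34). Hoxd10 and Hoxd11, neighbours in HoxD, were raised in the same 2 old cultured arrays: Hoxd11 was 3.68, 4.85, 5.41 and 3.73, and Hoxd10 was 3.10, 4.13, 3.89 and 3.11. Both were at or below the control background in the other 2 arrays. Hoxd10 stayed below it in all 4.

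Where a member had several probe sets, they did not always move alike. For Hoxd13 the probe set used changed by -0.34 in culture and the other by 0.02. For Hoxb3 the probe set used changed by 0.04 and the other, dimmer one by 0.45. The 2 probe sets of Hoxc5 and of Hoxd8 changed in the same direction, by -0.28 and -0.32 for Hoxc5 and by -0.70 and -0.45 for Hoxd8. How far overlapping and antisense transcripts of a cluster contribute to a probe set was not tested.

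Genes that act with or on the Hox clusters were counted in lists, whose counts in culture are to be read against 34.8% higher and 44.7% lower over all genes tested. None of the tested genes in the 7 lists below, or near the clusters, passed in either age comparison or the interaction. Of the 8 tested TALE cofactors, 2 rose and 5 fell in culture, with Pbx3 at 1.58 ± 0.13 and Meis1 at -0.52 ± 0.11 (SE) as the largest. Of 23 Polycomb genes, 11 rose and 8 fell. Ezh2, the histone methyltransferase of Polycomb repressive complex PRC2, rose by 2.89 ± 0.12 and Rybp, a subunit of PRC1 complexes, fell by 1.68.

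Of 14 Trithorax and activator genes, 7 rose and 3 fell, with Psip1 and Ash2l both at 1.23 and Kmt2c, a histone methyltransferase, at -1.61. Of 7 cohesin and CTCF genes, 4 rose and 1 fell, Wapl, which releases cohesin, at 1.39 and Nipbl, which loads it, at -0.48. Of 20 genes of retinoic acid signalling and upstream regulators, 5 rose and 10 fell. Gmnn, a replication licensing inhibitor, rose by 2.99 and Aldh1a1, which makes retinoic acid, fell by 2.98.

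Of 25 other positional transcription factors, 3 rose and 10 fell, with Prrx2 at 0.79 and Meox2 at -2.51. Of 3 tested Hox noncoding RNAs, only Haglr of the HoxD cluster passed and it fell by 0.42. Its means were 4.035 and 4.115 in old and young in vivo cells and 3.705 and 3.615 in old and young cultured cells. All of these lay below the control background, so a fall in Haglr expression is not shown. Of 38 tested genes nearest to the clusters, 5 on each side, 20 rose and 11 fell, with Agps, an ether lipid enzyme, at 2.04 and Nfe2l3, a transcription factor, at -2.40. Over all genes tested the median log2 change was -0.11, and it was -0.33 for the cofactors, 0.17 for Polycomb, 0.24 for Trithorax and activators, 0.42 for cohesin and CTCF, -0.21 for retinoic acid genes, -0.18 for the other positional factors, -0.17 for the noncoding RNAs and 0.20 for the cluster neighbours.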

How the data were processed

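Affymetrix arrays were hybridised with cDNA from 5000 dermal fibroblasts per sample, amplified over 23 cycles, per the labels. RMA and affy are named, without version, in the submitters' processing notes. The deposited log2 values are 1 value per probe set, and the base of the logarithm was taken from their range. RMA equalises the distributions of arrays processed together, so changes are relative to other genes, and it narrows differences of dim genes. Whether all 16 arrays were processed together is not stated. Array medians were 4.74 to 4.76 in cultured and 4.83 to 4.92 in in vivo cells. Of 45141 probe sets, the 28898 with 1 symbol in the platform annotation were used, and each gene was represented by its brightest. Genes with at least 4 arrays above 3.87, the 25th percentile, were tested. Group means were fitted with limma 3.58.1 in R 4.3.3 (lmFit and eBayes), with Benjamini-Hochberg adjustment over 14819 genes and a threshold of 0.05. Culture and interaction used all 16 arrays, taken as independent although the same mice supplied both conditions. Age used the 8 arrays of its condition, because the median residual SD was 0.185 in vivo and 0.129 in culture. Fits were tested on simulated data, which recovered 81.0% of 2-fold age changes in vivo and 25.0% of log2 changes of 0.5. False calls there were 4.20% of calls for age in vivo, 6.13% for age in culture, 7.59% for culture and 9.16% for the interaction. Only a small share of genes was changed in the simulated data, whereas calls were common in the real culture comparison. The simulated share for culture therefore does not measure false calls in that comparison. The smallest two-sided p of an exact permutation of 4 against 4 arrays is 0.0286, and the number of arrays limits the precision. No 2 arrays were identical. Members and gene lists were chosen with earlier results of these data known. Full values were given for members called with at least 2-fold change in culture or called by age. Values were also given, after they were seen, for Hoxb8, for Hoxc8 in vivo, and for Hoxd10 and Hoxd11 in old cultured cells. From each list, the largest called change in each direction was named. The alternatives were another probe set rule, filters, scalings, variance model, samples in the fit and leaving out each array.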

Additional observations from a re-analysis of the deposited data

Results flagged for a closer look

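Of 136 combinations of member and group, 9 had an array that stood apart from the other 3 by a gap, as a share of the group's range, over Dixon's 95% critical value. Chance flags about 1 in 20. The gap divided by the range was 0.912 for Hoxc5 in old cultured cells, where replicate 1 was high (6.39, against 5.82 to 5.87), and 0.88 for Hoxd12 in old cultured cells, where replicate 1 was low (4.71, against 4.93 to 4.96). In young cultured cells they were 1.0 for Hoxa2, low in replicate 1 (3.76, against 3.87), 0.865 for Hoxd13, low in replicate 1 (3.82, against 4.27 to 4.34), and 0.852 for Hoxd11, high in replicate 2 (3.94, against 3.67 to 3.71). In old in vivo cells they were 0.932 for Hoxb8, low in replicate 4 (5.14, against 5.96 to 6.02), and 0.833 for Hoxa7, low in replicate 1 (5.71, against 5.81 to 5.83). In young in vivo cells they were 0.837 for Hoxa7, high in replicate 4 (5.99, against 5.56 to 5.63), and 0.889 for Hoxd1, high in replicate 1 (3.74, against 3.38 to 3.42). Hoxa2, Hoxd1 and Hoxd11 lay below the control background in those arrays, as did Hoxd13 in young cultured replicate 1.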

How the results depend on the processing

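The members called in old mice by culture numbered 6, and 12 with the 75th percentile scaling. The members called by age in vivo numbered 2, 1 without the filter on dim genes, and 0 to 3 when each array was left out in turn. Over all genes, 200 were called by age in vivo, 900 with all 16 arrays in the fit and 60 to 306 when each array was left out. With all 16 arrays in the fit, Hoxc9 lost its call and Hoxa9 gained one (adjusted p = 0.0294), and without the filter Hoxa10 lost its call. The interaction had 87 calls over all genes and 44 to 200 when each array was left out. The cause of these shifts was not tested. The averaged culture count of 17 members was 14 to 17 when each array was left out. No log2 change of a called member reversed sign under the alternatives run, while the HoxA median turned above 0 with cyclic loess. The calls of Hoxa10, Hoxb5, Hoxb8, Hoxb9, Hoxc13, Hoxa7, Hoxa9, Hoxd4, Hoxd8 and Hoxd9 in the averaged culture comparison held under every alternative run. No paired analysis was possible because the labels do not tie arrays to mice or days. Dim members have understated changes.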
